A study of Mus musculus with 8 samples.

Results

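RNA polymerase II, the enzyme that transcribes messenger RNA, works with general transcription factors, the Mediator complex and a set of elongation factors. The levels of the transcripts that encode these proteins were examined in mouse cortex. Members were chosen by symbol in the deposited table of gene symbols: genes named Med, Polr2, Gtf2, Taf or Supt followed by a number or letter of the family (Taf15 left out), together with the kinases Cdk7, Cdk8, Cdk9 and Cdk19, the cyclins Ccnc, Ccnh, Ccnt1 and Ccnt2, the TATA-binding protein gene Tbp, and the negative elongation factor genes Whsc2, Cobra1, Rdbp and Th1l. This gave 89 transcripts with 88 symbols among 10601 transcripts in that table, and all 89 were among the 10588 transcripts tested. Further genes that work with these complexes are described at the end from separate lists.

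The bigenic mice (Camk2a-tTa / deltaNLS-hTDP-43) carried human TDP-43 with a defective nuclear localization signal under a tetracycline-responsive promoter, driven by the tetracycline transactivator from the Camk2α promoter, which is active in forebrain excitatory neurons. TDP-43 is an RNA-binding protein that is normally nuclear. Nontransgenic mice, bred from parents heterozygous for both transgenes, were the controls, so effects of the transactivator and of the TDP-43 transgene cannot be told apart. All mice were C57BL/6 and received doxycycline, which silences the transgene, until 28 days of age. RNA was taken from the right cortex 10 days after the diet was removed, at 38 days of age, from 4 bigenic and 4 nontransgenic mice. The comparison asks how expression of the cytoplasmic protein for this time relates to the level of each transcript.

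The deposited values were whole-number normalized counts, with column totals of 20.1 M to 22.0 M, behind which lay an estimated 10.6 M to 31.9 M reads per mouse. Mice are listed below in the order of the deposited columns, which do not carry the replicate numbers of the labels. Mouse Tardbp, which encodes the endogenous TDP-43, was lower in the bigenic mice (log2 fold change -0.33 ± 0.07 SE, adjusted p = 0.00645 by limma). The second bigenic library was the shallowest, and it lay outside the range of the other 3 bigenic mice for most members, above them for 41 and below them for 38 of 89. The same held for 43.1% and 38.4% of all transcripts tested. Across 88 members with a known GC content, the deviation of that library from the other bigenic mice rose with GC content (Pearson r = 0.29, Spearman rho = 0.36), as a description over genes that share these libraries. For the first and the third bigenic library the correlation across members was -0.29 and -0.31, and for the fourth it was -0.05. Each deviation was taken from the other bigenic mice, so these correlations are not independent of one another. Over all transcripts with a known GC content the correlation was 0.38 for the second library. Values without the second library are given below where a call or a value rested on it.

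Summed levels of cell type markers also differed between the groups. The 10 neuronal markers tested summed to between 133016 and 176566 normalized counts in the bigenic and between 184724 and 201677 in the nontransgenic mice, and 6 of the 10 were lower and 1 higher past the test, while 15.4% of all transcripts tested were lower and 20.5% were higher. Astrocyte markers were lower for 4 of 8 (sums of 112542 to 129140 against 136590 to 147364) and microglial markers for 5 of 7 (3833 to 4757 against 5051 to 5902). Of 8 oligodendrocyte markers 1 was higher (63604 to 82903 against 62672 to 79197), and of 6 endothelial markers 1 was lower (3465 to 4124 against 3935 to 4885). Of 8 choroid plexus markers 4 were tested, with sums of 8385 to 19459 against 363 to 1203, and only 1 of the 4 reached the minimum level in a nontransgenic mouse, so that the others entered the test through the bigenic mice. No marker tested was at 0 in any mouse, and the part of these differences in the results below was not tested. In tissue RNA, fewer cells of a type and less RNA per cell cannot be told apart.

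To start a gene, RNA polymerase II is placed at the promoter by TFIID, which contains the TATA-binding protein and its associated factors, and by TFIIA, TFIIB, TFIIE, TFIIF and TFIIH. Mediator links DNA-bound activators to the polymerase through head, middle and tail modules and carries a detachable kinase module. Shortly after initiation the polymerase is held by NELF and DSIF until the kinase P-TEFb releases it into elongation. Neurons depend on this machinery for the genes that activity switches on.

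TDP-43 binds RNA at runs of UG, so runs of at least 6 repeats of TG on the transcribed strand were located in the mm9 genome, with GENCODE gene models. Such a run lay in an exon of 7 of 87 annotated member genes (8.05%, against 8.03% of all genes tested) and anywhere in the gene for 58 (66.7%, against 73.4%). Of the 7 genes, Med13 was higher and Med27 was lower in the bigenic mice past the test described next, and Ccnt1, Gtf2i, Polr2c, Taf12 and Th1l were not called. The run in Med27 is an unbroken repeat of 58 bases in a UTR or noncoding exon (chr2:29333148-29333205, plus strand). The windows below show the run of Med13, the longer run of Ccnt1, whose ratio to Ccnt2 is tested below, and 1 run of Taf12, which holds 6 runs in its 3′ UTR. Each is 30 bases of the transcribed strand, 5′ to 3′, with the TG run in capitals.
Med13, 3′ UTR, chr11:86083177-86083206, minus strand: tgtgtataTGTGTGTGTGTGTGcaatcaaa
Ccnt1, 3′ UTR, chr15:98372960-98372989, minus strand: tgtgctTGTGTGTGTGTGTGTGTGggtgta
Taf12, 3′ UTR, chr4:131849432-131849461, plus strand: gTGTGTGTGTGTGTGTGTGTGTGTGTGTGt
A run is a description of the letters in these exons and not a binding site.

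Across all role groups 15 of 89 members were higher and 7 were lower in the bigenic mice at an adjusted p below 0.05 (limma on log2(normalized count + 1), Benjamini-Hochberg over all 10588 transcripts). That is 24.7% of the members, while 35.9% of all transcripts tested were called, 20.5% higher and 15.4% lower. The values of the 2 groups did not overlap for 32 members (36.0%), against 39.0% of all transcripts. The median log2 fold change was 0.05 over the members and 0.03 over all transcripts, and the median size of the change was 0.21 and 0.25. The share called among members was above that of all transcripts only with no filter on low values (22.5% against 19.9%). The calls were spread over 11 of 14 role groups. These groups are small, so each count within a role group below is a description beside the shares of all transcripts. Of the 22 called members, 9 changed by at least 1.5-fold and 1, Med20, by at least 2-fold.

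**Figure D1:**
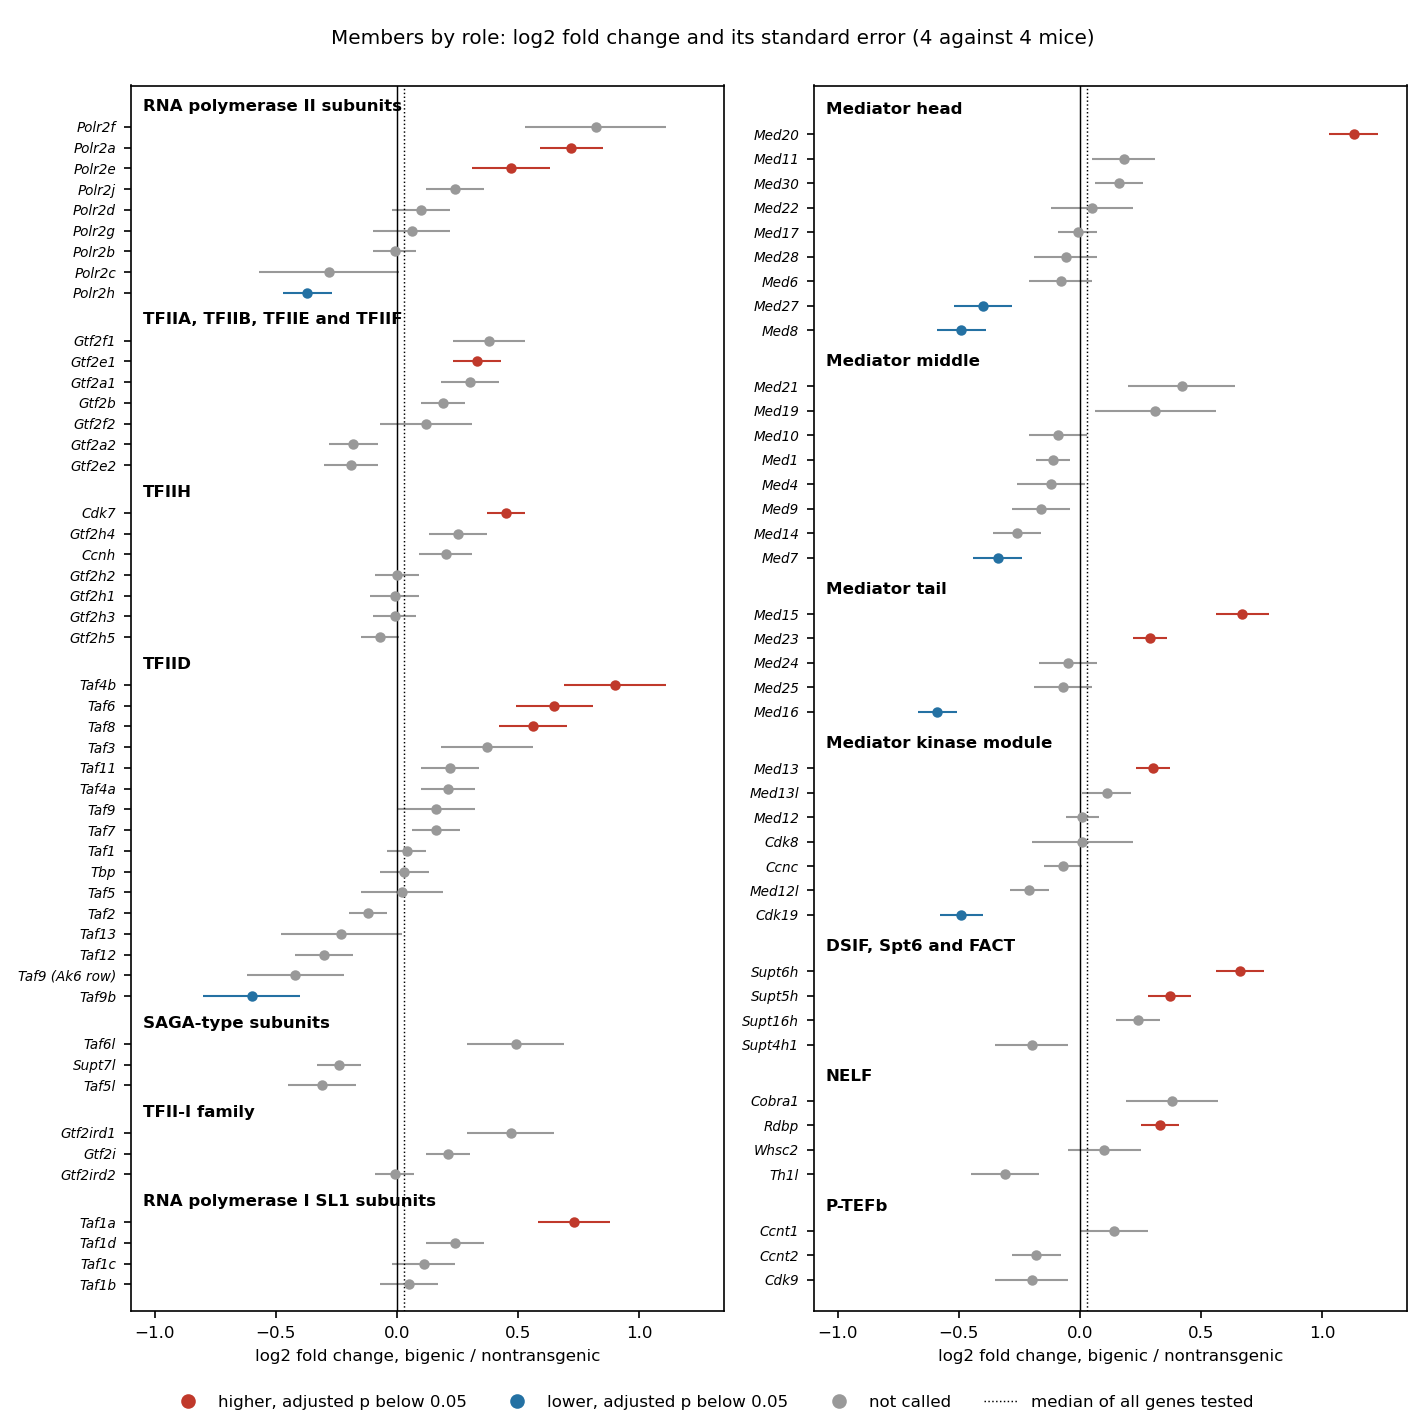
Log2 fold change of each of the 89 members, bigenic over nontransgenic (4 against 4 mice), grouped by role, with bars for the standard error. Red points were higher and blue points lower past the test, grey points were not called, and the dotted line is the median of all transcripts tested, 0.03. Calls in both directions lie within the RNA polymerase II, TFIID, Mediator head, tail and kinase groups.

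Among 9 RNA polymerase II subunit genes, 2 were higher, 1 was lower and 6 were not called (median log2 fold change 0.10). That is 33.3% called, against 35.9% of all transcripts. Polr2a encodes the largest subunit, whose carboxy-terminal repeats receive the phosphates that mark each step of transcription. It lies on chromosome 11 (chr11:69547499-69572139, minus strand, 29 exon blocks). Its normalized counts were 2588, 3487, 2195 and 2489 in the bigenic and 1657, 1610, 1484 and 1688 in the nontransgenic mice. All bigenic mice lay above all nontransgenic mice, and the group means were 2690 ± 557 and 1610 ± 89.8 (SD, n = 4). The log2 fold change was 0.72 ± 0.13 (SE, adjusted p = 0.00243), and 0.59 without the second bigenic library, which was the highest.

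Polr2b, which encodes the second largest subunit and forms the catalytic centre with Polr2a, did not follow it, with a log2 fold change of -0.01 ± 0.09 (adjusted p = 0.918). An unnamed gene model on the same strand covers 91.9% of its exon length. Polr2e, a small subunit shared by all 3 nuclear RNA polymerases, had 691, 1183, 707 and 748 normalized counts in the bigenic and 552, 572, 631 and 593 in the nontransgenic mice. The groups did not overlap (log2 fold change 0.47 ± 0.16, adjusted p = 0.0441), but the call was lost in 5 of the 8 fits that left out 1 mouse, and the value was 0.29 (adjusted p = 0.00794) without the second bigenic library. Polr2h, another shared subunit, was lower with 256, 269, 273 and 288 against 338, 317, 354 and 401 normalized counts. Every bigenic value lay below every nontransgenic value (log2 fold change -0.37 ± 0.10, adjusted p = 0.0176), but the call was lost without the third nontransgenic library (adjusted p = 0.0520). Exons of Clcn2 on the opposite strand cover 8.63% of Polr2h, and no source states that the counting used strand.

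The remaining subunit genes showed how far a single library weighed. Polr2f, also shared by the 3 polymerases, had 839, 1872, 636 and 736 normalized counts in the bigenic and 438, 518, 524 and 643 in the nontransgenic mice. Only the second bigenic library was far above the rest, and the third lay within the nontransgenic range. The log2 fold change of 0.82 ± 0.29 missed the threshold (adjusted p = 0.0519), and without that library it was 0.48 (adjusted p = 0.0115). Polr2g, which with Polr2d forms the stalk of the polymerase, had the opposite pattern, 591 in the second library against 943 to 1015 in the other bigenic mice, and its log2 fold change went from 0.06 to 0.24 without it (adjusted p = 0.0180). Polr2d (0.10), Polr2j (0.24) and Polr2c (-0.28, and 0.03 without that library) were not called either. Polr2c was among the members with the fewest reads, an estimated 49 in its lowest mouse.

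Per kilobase of exon, the levels of these subunit genes in the nontransgenic mice ran from 49.4 normalized counts for Polr2c to 977 for Polr2f, with a median of 327. Polr2a had 239 normalized counts per kilobase and Polr2b 562, although the 2 proteins are present in equal number in the enzyme. These levels depend on which exons are in the gene model, and the order of neighbours was not tested.

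**Figure D2:**
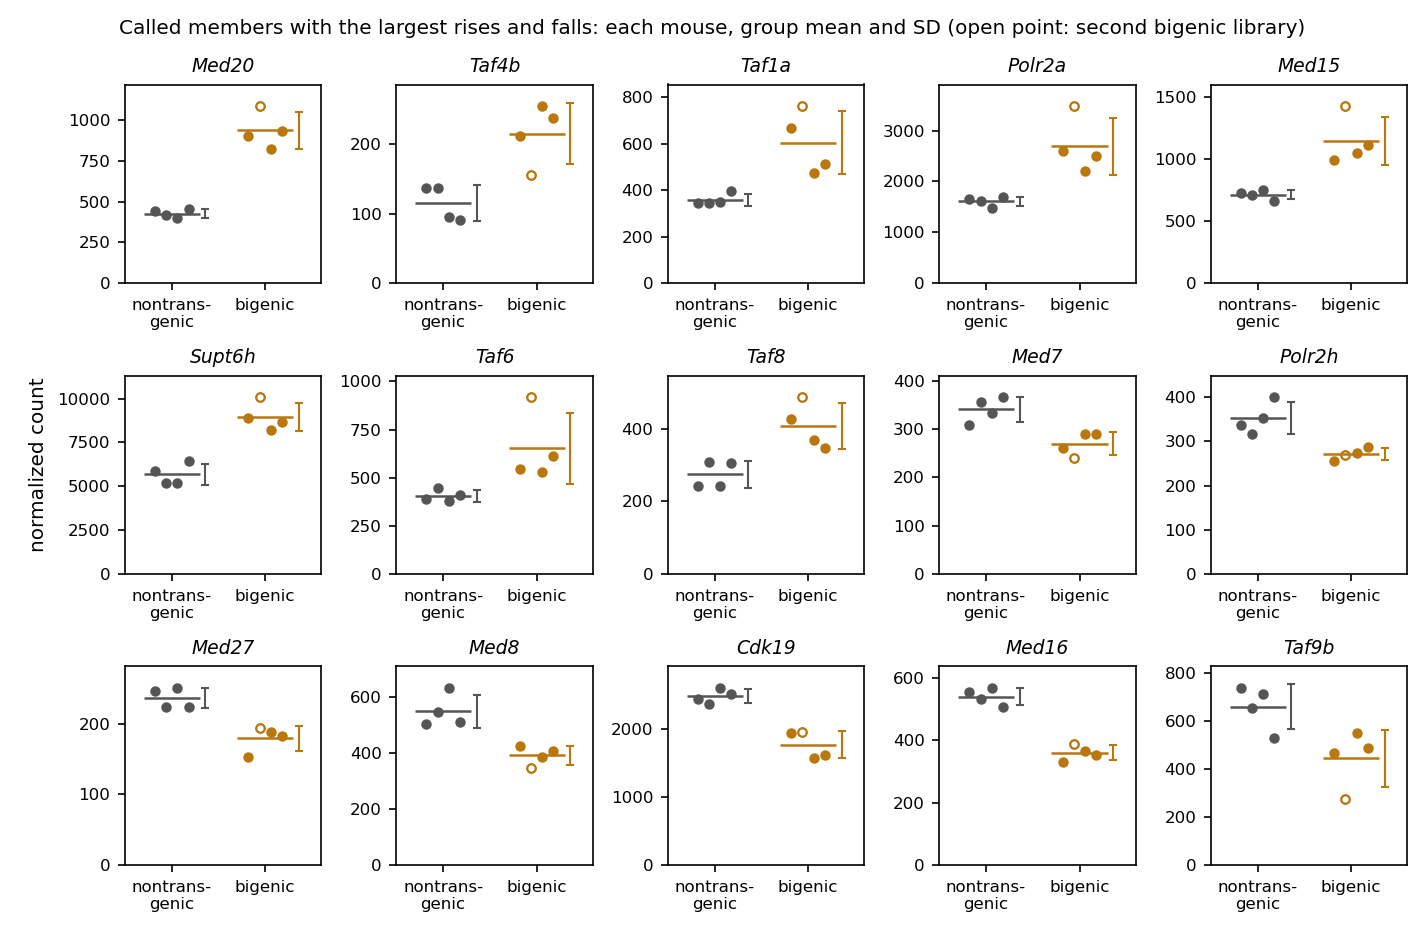
Normalized counts (y axis, from 0) in each nontransgenic (grey) and bigenic (orange) mouse for the 8 members with the largest rise among those called and the 7 that fell past the test, with the group mean (line) and SD (bar). Open points mark the second bigenic library, which is the highest bigenic value for 7 of these 8 called members that rose and the lowest for Taf4b.

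The general transcription factors TFIIA, TFIIB, TFIIE and TFIIF gave 1 call among 7 genes. Gtf2e1, the large subunit of TFIIE, which brings TFIIH to the promoter, had 694, 521, 595 and 580 normalized counts in the bigenic and 503, 473, 484 and 438 in the nontransgenic mice. The groups did not overlap (log2 fold change 0.33 ± 0.10, adjusted p = 0.0294), and the call held in 2 of the 8 fits without 1 mouse. Gtf2e2, its partner in TFIIE, was not called and had the opposite sign (-0.19, adjusted p = 0.209). Of the others Gtf2f1 (0.38), Gtf2a1 (0.30), Gtf2b (0.19), Gtf2f2 (0.12, and -0.10 without the second bigenic library) and Gtf2a2 (-0.18) were not called. Without the second bigenic library Gtf2b, Gtf2a1 and Gtf2f1 were higher past the test, with log2 fold changes of 0.26, 0.40 and 0.22.

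TFIIH opens the promoter DNA and phosphorylates the polymerase through its kinase Cdk7. Of its 7 genes, Cdk7 alone was called. It had 1696, 1543, 1776 and 1907 normalized counts in the bigenic and 1270, 1251, 1269 and 1272 in the nontransgenic mice. The nontransgenic mice were nearly identical (1270 ± 9.75, SD, n = 4) and all bigenic mice lay above them (1730 ± 152). The log2 fold change was 0.45 ± 0.08 (adjusted p = 0.00226), and the call held in all 8 fits without 1 mouse. Cyclin H, encoded by Ccnh, is the partner that activates this kinase, and its log2 fold change was 0.20 (adjusted p = 0.197), or 0.26 without the second bigenic library (adjusted p = 0.0455). The core genes Gtf2h1, Gtf2h2, Gtf2h3 and Gtf2h5 had log2 fold changes between -0.07 and 0.00, and Gtf2h4 had 0.25 (adjusted p = 0.125).

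TFIID had 3 higher and 1 lower member among 16 transcripts (median log2 fold change 0.10). Taf4b encodes a relative of Taf4a that replaces or joins it in TFIID of some cells and is best known from the germ line. Its normalized counts were 211, 155, 255 and 238 in the bigenic and 137, 137, 95 and 90 in the nontransgenic mice. The groups did not overlap although the second bigenic library was the lowest of its group (log2 fold change 0.90 ± 0.21, adjusted p = 0.00843, and 1.05 without that library). In every nontransgenic mouse Taf4b lay below 10 RPM, so it entered the test only through the bigenic mice. Per kilobase Taf4b was the lowest of the annotated members, with 22.2 normalized counts in the nontransgenic mice, and its lowest mouse held an estimated 75 reads.

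Taf6 and Taf8 encode histone-fold proteins of TFIID. Taf6 had 546, 920, 528 and 612 against 390, 444, 377 and 410 normalized counts, and Taf8 had 427, 488, 368 and 348 against 243, 308, 243 and 305. Neither gene's groups overlapped. The log2 fold changes were 0.65 ± 0.16 for Taf6 (adjusted p = 0.0125) and 0.56 ± 0.14 for Taf8 (adjusted p = 0.0106). Both calls held in every fit without 1 mouse, in which their changes went no lower than 0.47.

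Taf9b, a relative of the histone-fold subunit Taf9, was the member that fell most. Its normalized counts were 464, 275, 550 and 487 in the bigenic and 737, 652, 713 and 528 in the nontransgenic mice. One bigenic mouse lay within the nontransgenic range, which makes Taf9b the single called member with overlapping groups (log2 fold change -0.60 ± 0.20, adjusted p = 0.0423). Without the second bigenic library, the lowest, the change was -0.39 (adjusted p = 0.0188), and the adjusted p passed 0.05 in 5 of the 8 fits without 1 mouse, at most 0.112. Taf9 itself stood on 2 rows. The row whose RefSeq identifier belongs to Taf9 had a log2 fold change of 0.16, and the row whose identifier belongs to Ak6, an adenylate kinase made from the same locus, had -0.42, neither called. Only 42.5% of windows of 50 bases in Taf9 exons occur once in the genome, so both values are uncertain.

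The other TFIID genes were not called. Tbp, the TATA-binding protein, had a log2 fold change of 0.03 ± 0.10, and Taf1, the largest subunit, had 0.04 ± 0.08. Taf12 had 252, 207, 248 and 261 against 284, 284, 277 and 350 normalized counts, which did not overlap, but its adjusted p was 0.0727 (log2 fold change -0.30). Taf3, which reads a histone mark of active promoters, had 0.37 with 1487 normalized counts in the second bigenic library and 778 to 909 in the other bigenic mice, and 0.16 without that library. Taf4a, Taf5, Taf7, Taf11, Taf2 and Taf13 lay between -0.23 and 0.22, and the lowest, Taf13, had 0.05 without that library.

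Several members named like TFIID subunits belong to other complexes. Taf1a, Taf1b, Taf1c and Taf1d encode the factors that join the TATA-binding protein in SL1, the promoter factor of RNA polymerase I. Taf1a had 667, 763, 474 and 511 normalized counts in the bigenic and 343, 343, 350 and 395 in the nontransgenic mice. All bigenic values were above all nontransgenic values (log2 fold change 0.73 ± 0.15, adjusted p = 0.00453), while Taf1b (0.05), Taf1c (0.11) and Taf1d (0.24) were not called. Of the subunits of SAGA-type coactivators, Taf5l (-0.31), Taf6l (0.49) and Supt7l (-0.24), none was called by limma, and 2 had an unadjusted p below 0.05. The TFII-I family, Gtf2i, Gtf2ird1 and Gtf2ird2, had no call either, with 2 at an unadjusted p below 0.05. Gtf2ird1 had 492, 730, 415 and 415 against 380, 359, 306 and 396 (log2 fold change 0.47, adjusted p = 0.0601), and without the second bigenic library the value was 0.29 (adjusted p = 0.0451).

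Mediator had calls in both directions. Of its 29 genes 4 were higher (Med20, Med15, Med13 and Med23) and 5 were lower (Med16, Cdk19, Med8, Med27 and Med7). That is 13.8% higher and 17.2% lower, against 20.5% and 15.4% of all transcripts tested. The median log2 fold change was -0.06. Only in the middle module was there a call in 1 direction alone.

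In the head module, which contacts the polymerase, Med20 had the largest change and the smallest adjusted p of all members. Med20 lies on chromosome 17 (chr17:47748531-47761367, plus strand, 4 exon blocks). Its normalized counts were 905, 1090, 825 and 933 in the bigenic and 440, 416, 398 and 456 in the nontransgenic mice. The lowest bigenic mouse lay far above the highest nontransgenic mouse (means 938 ± 111 and 428 ± 25.6, SD, n = 4). The log2 fold change was 1.13 ± 0.10 (2.18-fold, adjusted p = 5.08e-05) and stayed between 1.05 and 1.19 when any 1 mouse was left out. Med20 stands beside Usp49 on this chromosome, and the annotation holds a gene model that reads through both. Usp49, on its own row, had a log2 fold change of -0.09 (adjusted p = 0.589). The authors name both Med20 and Usp49 among the few genes with an exon whose use differed between these groups. How the change in Med20 was spread over its exons was not tested here.

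Med8 and Med27, also of the head, were lower. Med8, which with Med18 and Med20 forms a movable part of the head, had 426, 345, 385 and 407 against 503, 546, 632 and 511 normalized counts. The groups did not overlap (log2 fold change -0.49 ± 0.10, adjusted p = 0.00597), so these neighbours in the complex, Med20 and Med8, changed in opposite directions. Med27 had 153, 194, 188 and 182 against 247, 224, 251 and 224, again without overlap (-0.40 ± 0.12, adjusted p = 0.0239). In every bigenic mouse Med27 lay below 10 RPM, so it entered the test only through the nontransgenic mice. With no filter on low values its adjusted p by limma was 0.0341. Its call held in 5 of the 8 fits without 1 mouse. Med6, Med11, Med17, Med22, Med28 and Med30 were not called, with log2 fold changes from -0.08 to 0.18. Med17, the scaffold of the head, was nearly level, with -0.01 ± 0.08.

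Of 8 middle module genes only Med7 was called. It had 260, 240, 290 and 290 against 308, 356, 333 and 367 normalized counts, which did not overlap (log2 fold change -0.34 ± 0.10, adjusted p = 0.0309). Without a GC content and length trend the value was -0.21 (adjusted p = 0.139), and the call held in 4 of the 8 fits without 1 mouse. A gene model on the opposite strand covers 22.1% of the Med7 exons. Med1, the subunit that binds nuclear receptors, did not overlap between the groups but was not called (978, 933, 970 and 940 against 983, 1072, 1036 and 1034, log2 fold change -0.11, adjusted p = 0.226). Med21 and Med19 had 1026 and 1584 normalized counts in the second bigenic library, against at most 571 and 794 in the other bigenic mice, and their log2 fold changes of 0.42 and 0.31 were 0.16 and 0.01 without it. Med14, the backbone that joins the modules, had -0.26 (adjusted p = 0.0810).

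The tail module, which many activators contact, had 3 calls among 5 genes (60.0%, against 35.9% of all transcripts), a description in so short a list. Med15 had 997, 1433, 1049 and 1113 normalized counts in the bigenic and 727, 713, 748 and 666 in the nontransgenic mice. Med23 had 1060, 1086, 1074 and 1051 against 953, 826, 842 and 878. Med16 went the other way, with 330, 387, 366 and 354 against 553, 532, 568 and 507. No gene of these 3 had overlapping groups, as for 39.0% of all transcripts, and all 3 calls held in every fit without 1 mouse. The log2 fold changes were 0.67 ± 0.11 for Med15 (adjusted p = 0.00178), 0.29 ± 0.07 for Med23 (adjusted p = 0.0124) and -0.59 ± 0.08 for Med16 (adjusted p = 0.000779). Med24 (-0.05) and Med25 (-0.07), the other tail genes, were not called.

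The kinase module pairs a cyclin-dependent kinase, Cdk8 or Cdk19, with cyclin C and with Med12 and Med13 or their relatives Med12l and Med13l. Cdk19 had 1931, 1954, 1568 and 1615 normalized counts in the bigenic and 2432, 2363, 2600 and 2503 in the nontransgenic mice. Every bigenic mouse was below every nontransgenic mouse (log2 fold change -0.49 ± 0.09, adjusted p = 0.00289). Cdk8 had 556, 283, 566 and 571 against 444, 476, 459 and 506. The second bigenic library was the lowest of the 8 and the other 3 bigenic mice were above all nontransgenic mice. The log2 fold change of Cdk8 was therefore 0.01 ± 0.21 (adjusted p = 0.966) with all mice and 0.26 without that library (adjusted p = 0.0131). Only 70.2% of windows in Cdk8 exons occur once in the genome.

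Med13 was higher with 3818, 3559, 3682 and 3745 against 3071, 3107, 2785 and 3073 normalized counts (log2 fold change 0.30 ± 0.07, adjusted p = 0.00782). The groups did not overlap, and the call held in all 8 fits without 1 mouse. Its relative Med13l had 3164, 3086, 3604 and 3825 against 3240, 2809, 3108 and 3543, which overlapped (0.11, adjusted p = 0.425). Med12 was level, with 757, 792, 785 and 801 against 758, 795, 742 and 812 (0.01 ± 0.07, adjusted p = 0.893). Med12l had 1525, 1278, 1513 and 1441 against 1593, 1665, 1570 and 1808, without overlap but not called (-0.21, adjusted p = 0.0810). Cyclin C, encoded by Ccnc, had -0.07 (adjusted p = 0.523).

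The ratio within 6 pairs of related genes was tested in each mouse with an exact two-sided permutation test over 70 arrangements, whose smallest p is 0.0286, adjusted over the 6 pairs. No pair had an adjusted p below 0.05, and the lowest was 0.0858. That value belonged to pairs already at the smallest possible exact p, so even full separation of the groups could not carry them past the adjustment. The lack of a call is therefore no sign that the ratios were unchanged. The log2 ratio of Med12l to Med12 was 0.87 ± 0.14 in the bigenic and 1.09 ± 0.04 in the nontransgenic mice (SD, n = 4, exact p = 0.0286), and that of Ccnt2 to Ccnt1 was 1.81 ± 0.09 against 2.14 ± 0.10 (exact p = 0.0286). Neither pair overlapped between the groups. For Cdk19 to Cdk8 the bigenic values were 1.79, 2.78, 1.47 and 1.5 and the nontransgenic values were 2.45, 2.31, 2.50 and 2.30. The second bigenic mouse had the highest ratio of all and the other bigenic mice the lowest (difference -0.50, exact p = 0.143, and -0.80 without that library). Taf4b to Taf4a differed by 0.69 (exact p = 0.0857), Taf9b to Taf9 by -0.76 (exact p = 0.0857, and -0.38 without the second bigenic library) and Med13l to Med13 by -0.19 (exact p = 0.114).

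Among the factors that follow the polymerase, DSIF, Spt6 and FACT gave 2 rises in 4 genes (50.0%, against 20.5% of all transcripts). Over 4 genes this is a description. Supt6h encodes Spt6, a histone chaperone that travels with the polymerase. It had 8876, 10103, 8213 and 8673 normalized counts in the bigenic and 5865, 5206, 5214 and 6443 in the nontransgenic mice. All bigenic mice lay above all nontransgenic mice (log2 fold change 0.66 ± 0.10, adjusted p = 0.000781), and 0.60 remained without the second bigenic library. Supt5h, the large subunit of DSIF, had 3919, 5011, 3901 and 3982 against 3193, 3092, 3201 and 3486 (0.37 ± 0.09, adjusted p = 0.0139). Supt4h1, its small partner, had the opposite sign and was not called (-0.20, adjusted p = 0.329), but only 40.8% of its windows occur once in the genome. Supt16h, a FACT subunit that moves histones out of the way, had 2803, 3462, 2753 and 2750 against 2538, 2315, 2372 and 2688, without overlap and not called (0.24, adjusted p = 0.0697).

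NELF, which holds the polymerase near the promoter, had 1 rise in 4 genes. Rdbp had 564, 517, 549 and 579 normalized counts in the bigenic and 457, 463, 434 and 408 in the nontransgenic mice. The groups did not overlap (log2 fold change 0.33 ± 0.08, adjusted p = 0.0117). With the trend on GC content and length removed the adjusted p was 0.0577. For Rdbp, there named Nelfe, the authors report RT-qPCR with random hexamers in which the groups off doxycycline did not differ significantly. They also state that RT-qPCR of the histone 3′ end processing genes, Nelfe among them, bore out their sequencing. Th1l had 453, 703, 524 and 464 against 712, 651, 680 and 586, so that 3 bigenic mice were below all controls and the second was not (-0.31, adjusted p = 0.104, and -0.45, adjusted p = 0.00182, without it). Cobra1 (0.38) and Whsc2 (0.10) were not called. The second bigenic library was the highest of the 8 for both, and the values without it were 0.16 and -0.03.

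P-TEFb is the kinase Cdk9 with cyclin T1 or T2 and releases the paused polymerase. None of its 3 genes was called by limma, and none had an unadjusted p below 0.05 with all mice. Cdk9 had 941, 1572, 1060 and 1071 normalized counts in the bigenic and 1215, 1216, 1358 and 1475 in the nontransgenic mice. The second bigenic library was the highest of the 8 and the other 3 bigenic mice were the lowest, so the log2 fold change was -0.20 ± 0.15 (adjusted p = 0.307) with it and -0.36 (adjusted p = 0.00585) without it. Ccnt1 had 448, 335, 462 and 513 against 442, 362, 363 and 411 (0.14, adjusted p = 0.435, and 0.27, adjusted p = 0.0397, without that library). Ccnt2 had 1496, 1284, 1643 and 1724 against 1810, 1745, 1574 and 1818 (-0.18, adjusted p = 0.187).

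**Figure D3:**
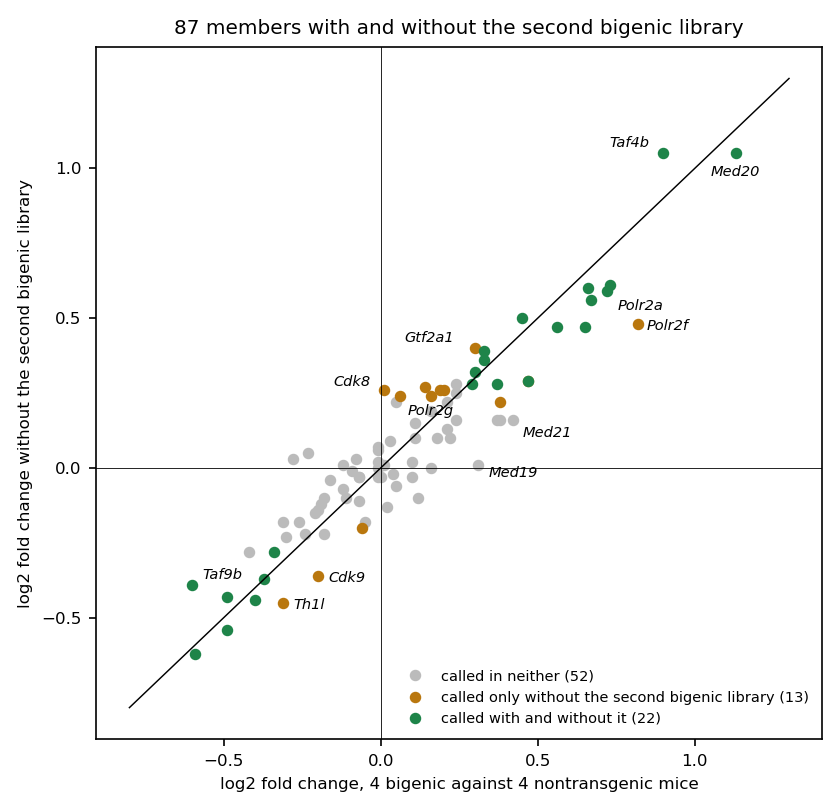
Log2 fold change of 87 members with all mice (x axis) and without the second bigenic library (y axis), with the line of equal values. Green points (22) were called in both fits, orange points (13) only without that library, and grey points (52) in neither.

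Over the whole set, leaving out the second bigenic library left 87 members tested and raised the number called from 22 to 35, with 25 higher and 10 lower. All 22 calls were kept. The share of members called was then 40.2%, and 45.6% of all transcripts were called in that fit (25.3% higher and 20.3% lower). The added members were Polr2f, Polr2g, Gtf2b, Gtf2a1, Gtf2f1, Ccnh, Taf7, Ccnt1, Cdk8 and Gtf2ird1 on the higher side and Th1l, Cdk9 and Med28 on the lower side, and 16 of the 22 members called with all mice were called in every fit without 1 mouse. The number of lower members was 4 without the second and 3 without the third nontransgenic library. Of all transcripts, 25.2% and 25.1% were called in those fits in either direction, against 35.9% with all mice.

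Genes that act with the members but are not among them were read from a list of 46 tested genes. Of these 16 were higher (34.8%, against 20.5% of all transcripts) and 5 were lower (10.9%, against 15.4%), with a median log2 fold change of 0.16 beside 0.03 over all transcripts. Without the second bigenic library the counts were 17 and 8, beside 25.3% and 20.3% of all transcripts, and the median was 0.13. Without the second and the third nontransgenic library the higher count was 10 and 9. Of all transcripts, 25.2% and 25.1% were called in those fits in either direction. The PAF1 complex, which rides on the elongating polymerase, had 4 of 6 genes higher (Leo1, Rtf1, Cdc73 and Ctr9) and none lower. The super elongation complex, which carries P-TEFb to paused genes, also had 4 of 7 higher (Eaf1, Ell2, Aff1 and Aff4) and none lower. With lists of 6 and 7 genes, beside the 20.5% and 15.4% of all transcripts called in each direction, these counts are a description.

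Eaf1, a partner of the elongation factor Ell, had the largest rise of the list. It had 1096, 1305, 1109 and 1144 normalized counts in the bigenic and 552, 577, 568 and 691 in the nontransgenic mice. The groups were far apart (log2 fold change 0.96 ± 0.10, adjusted p = 0.000103). Leo1 of the PAF1 complex had 1537, 2705, 1412 and 1503 against 1090, 996, 1002 and 1207 (0.69 ± 0.19, adjusted p = 0.0178, and 0.47 without the second bigenic library). Tceb3, which encodes elongin A, had 1471, 1683, 1490 and 1435 against 1091, 978, 992 and 1018 (0.57 ± 0.08, adjusted p = 0.000593).

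The 5 falls lay in lists that also held rises. Rprd1a, which binds the tail of the polymerase, had 1299, 1001, 1228 and 1307 normalized counts against 1794, 1795, 1785 and 1748 (log2 fold change -0.57 ± 0.09, adjusted p = 0.00157). Tcea2, a TFIIS factor that rescues stalled polymerase, had 362, 389, 494 and 434 against 542, 579, 684 and 671 (-0.56 ± 0.12, adjusted p = 0.00579). Ssu72, a phosphatase of the polymerase tail, had 1130, 951, 1095 and 1026 against 1515, 1477, 1480 and 1381 (-0.48 ± 0.08, adjusted p = 0.00151). None of the 3 had overlapping groups. Tceb1, elongin C, and Tbpl1, a relative of the TATA-binding protein, were the other 2 genes that fell (-0.46 and -0.43).

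In the remaining lists, Ccnk and Cdk12, a cyclin and kinase pair that phosphorylates the polymerase tail, were both higher (0.43 and 0.29), as were Rpap1 and Gpn3, which help to assemble and import the polymerase (0.38 and 0.37), Iws1, a partner of Spt6 (0.37), Drap1, a repressor that binds the TATA-binding protein complex (0.49), and Rprd2 (0.23). The regulators that hold P-TEFb inactive in the 7SK particle, Hexim1, Larp7 and Mepce, had no call by limma and none at an unadjusted p below 0.05, and 2 were lower past the test without the second bigenic library. The 3 TFIIH partners, Ercc2, Ercc3 and Mnat1, and the FACT partner Ssrp1 were not called.

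**Figure D4:**
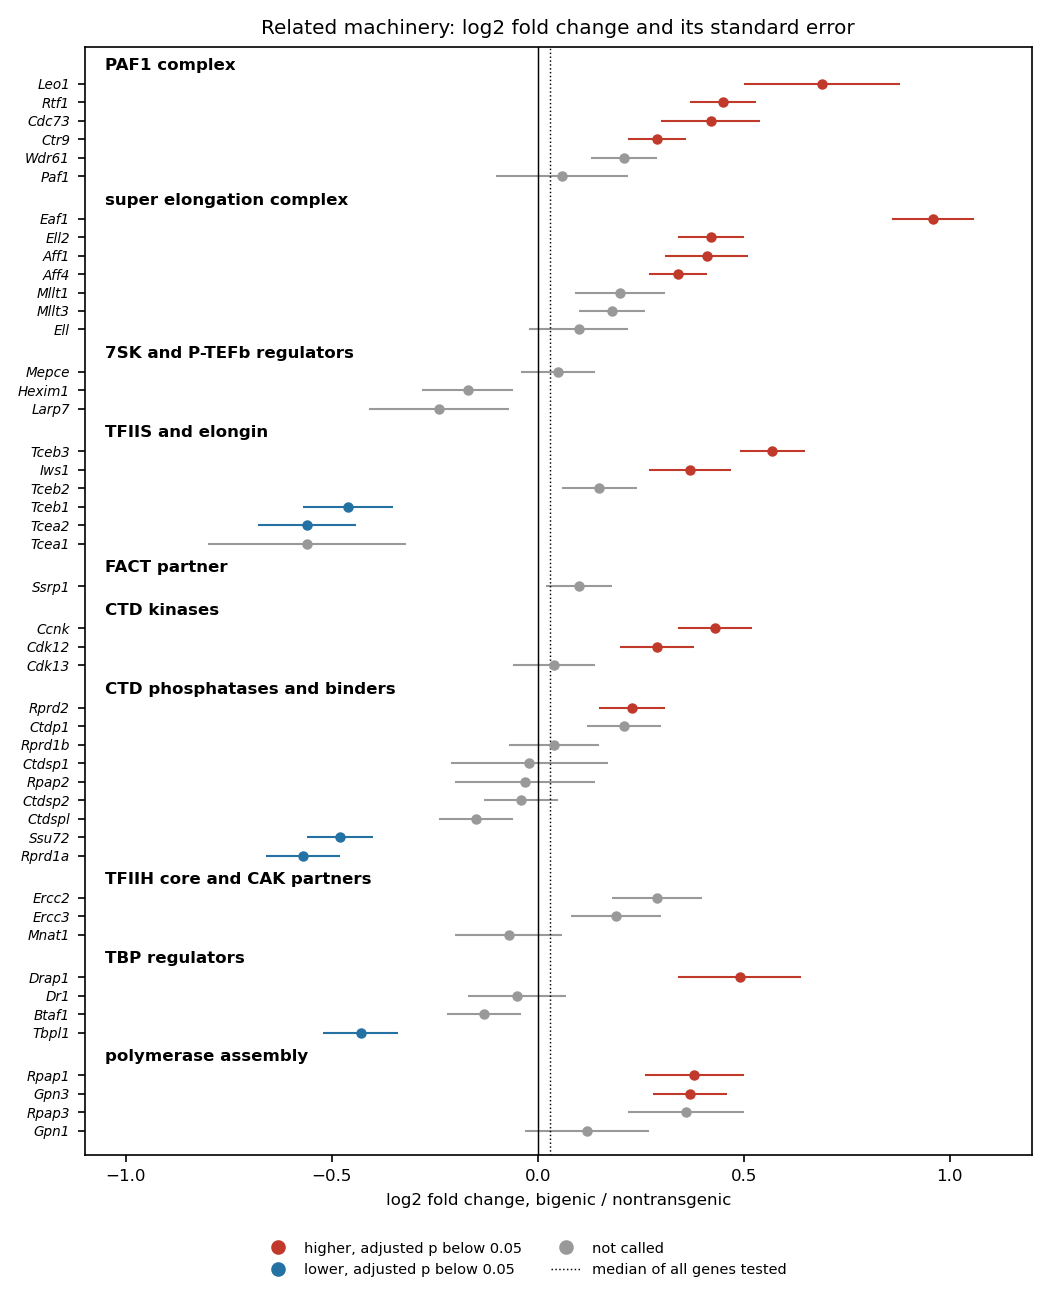
Log2 fold change of 46 related genes, bigenic over nontransgenic (4 against 4 mice), with bars for the standard error, by list. The 6 PAF1 and 7 super elongation complex genes all have positive values, and 4 in each list were past the test (red). Over all transcripts tested 53.3% had a positive value and 20.5% were higher past the test. Counts in such short lists are a description. The 5 genes that fell (blue) lie in the TFIIS and elongin, tail phosphatase and TBP regulator lists.

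For comparison, genes of the other 2 nuclear polymerases were counted in the same fit. Of 8 RNA polymerase I genes 3 were higher and none was lower, and of 22 RNA polymerase III genes 9 were higher and none was lower, both with a median log2 fold change of 0.29, while 20.5% of all transcripts were higher and 15.4% lower. Without the second bigenic library 5 of the 8 RNA polymerase I genes and 9 of the RNA polymerase III genes were higher. The largest values were 0.76 for Polr1a, the largest subunit of RNA polymerase I, and 0.92 for Polr3g, a subunit of RNA polymerase III. Whether these counts differ from those of the RNA polymerase II genes was not tested.

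The median GC content of the exons was 52.5% for the members that rose, 50.3% for those that fell and 48.3% for those not called. Their median nontransgenic levels were 587, 540 and 509 normalized counts, and the median over all transcripts tested was 812. Exons of 28 member genes overlap an annotated gene of another name, and among the called members this overlap was largest for Med7. The model that reads through Med20 and Usp49 carries the name Med20 and was not counted. Of the members with a gene model, 8 had under 80% of exon windows occurring once in the genome, and these carry fewer of the uniquely mapped reads.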

How the data were processed

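The authors sequenced poly(A)+ RNA from the right cortex of 4 mice per group. Per the submitters' processing notes and the methods, adaptors were trimmed with cutadapt, reads were mapped to mm9 with Bowtie 0.12.7 and reads with a unique position were kept. The authors merged exon counts from bedtools into genes and analysed them with DESeq2. The deposited signal is a whole-number normalized count per transcript and mouse (28662 transcripts). Its scaling is not given in the sources used here, so tests for raw counts were not run. The deposited log2 fold changes, p-values and baseline means of the authors were not used, only their symbols.

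Transcripts that reached 10 RPM (of their column's sum) in 1 mouse or more were compared on log2(value + 1) with limma 3.58.1 in R 4.3.3 (lmFit, eBayes with trend, Benjamini-Hochberg). This scale understates changes of low genes. The test was checked on simulated data with independent noise for each gene and no effect shared across a library. That check does not cover the behaviour of the second bigenic library. Of the members, 76 passed that minimum in every mouse. Taf4b, Taf6l and Gtf2h4 passed it only in bigenic mice, and Med27 only in nontransgenic mice. Reads per mouse were estimated from the spacing of low values, so the depth is approximate, and at the lowest member (49 reads) counting alone gives a coefficient of variation of 14.3%. Positions and exons come from GENCODE on the same build. Taf1a had no gene model there.

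The members and lists were chosen with earlier results of these data known. One gene of the related lists is not reported here. Values per mouse are given for the 8 called members with the largest rise and fall, the called member of smallest adjusted p in each role group, paralog pairs and Polr2a, and for the 3 related genes with the largest rise and fall. Other members given per mouse were chosen after their values were seen. Alternatives were other pseudocounts, filters, scalings, array weights, a stricter threshold, removal of a GC content and length trend, and leaving out each mouse. Python 3.11.15 and scipy 1.17.1 were used. P-values measure the spread between these mice.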

Additional observations from a re-analysis of the deposited data

Results flagged for a closer look

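In 14 of 178 sets of 4 values (89 members in each group of mice), 1 mouse stood apart from the other 3 by Dixon's test at the 95% level, which chance alone flags in about 1 of 20 sets. In the bigenic mice there were 9, and all 9 were the second bigenic library, 7 with a high and 2 with a low value. The gap as a share of the range was 0.926 for Supt16h (3462 normalized counts in that library), 0.927 for Supt5h (5011), 0.884 for Polr2e (1183), 0.836 for Polr2f (1872), 0.938 for Gtf2f2 (546), 0.854 for Taf5 (281) and 0.850 for Gtf2h2 (445). It was 0.948 for Cdk8 (283) and 0.830 for Polr2g (591), where that library was low. In the nontransgenic mice the share was 0.888 for Med13 (2785 in the third library), 0.865 for Taf1a (395 in the fourth), 0.841 for Polr2b (2538 in the first), 0.904 for Taf12 (350 in the fourth) and 0.857 for Cdk7 (1251 in the second). The part of depth or of GC content in these values was not tested.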

How the results depend on the processing

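The counts of members called (15 higher, 7 lower) kept within 1.5 times under both pseudocounts, both filters, rescaling, quantile normalization and removal of the GC content and length trend. With 10 RPM in every mouse 76 members were tested. Taf4b and Med27 were not among these, so the 15 and 7 called there were not all the same members. Array weights called 31 higher and 16 lower members and 11 lower related genes (61.0% of all transcripts were then called). An adjusted p below 0.01 left 8 and 3 members and 7 higher related genes (19.4% of all transcripts were then called). Leaving out each mouse gave 13 to 25 higher and 3 to 10 lower members, and 9 to 17 higher and 5 to 8 lower related genes. In these fits 25.1% to 45.6% of all transcripts were called. The higher count was 25 without the second bigenic library, and the related higher count was 10 and 9 without the second and the third nontransgenic library. The members' median (0.05) was 0.03 after quantile normalization, 0.07 with array weights, 0.08 without the GC and length trend and 0.03 to 0.09 without 1 mouse. The share of members called was below that of all transcripts in each fit except with no filter on low values (22.5% against 19.9%). Of 473 values for 28 named members, none changed direction where either fit called it, 31 lost and 11 gained a call. With 3 against 4 mice the smallest exact p is 0.0571, so no paralog ratio could pass. The difference then ranged from -0.27 to -0.16 for Med12l to Med12 and from -0.37 to -0.28 for Ccnt2 to Ccnt1. The causes were not tested. No paired analysis was possible because the columns carry no replicate numbers of the labels. Neither the labels nor the authors' methods state that bigenic and nontransgenic mice were paired, so a shared replicate number is not evidence of a pair. Depth limits the members with fewest reads most.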
